A study of Mus musculus with 4 samples.

Results

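The 9 genes described here encode surface proteins of resting microglia, the resident macrophages of the brain: Cx3cr1, P2ry12, P2ry13, Gpr34, Entpd1, Csf1r, Tmem119, Selplg and Siglech. Several are receptors for purine nucleotides, a chemokine or growth factors, and all 9 are called receptor genes below for short. The 9 genes were chosen by name, out of the 5526 gene names with at least 1 called N6-methyladenosine (m6A) site in any library of the series. Together they had 47 listed sites at 42 positions. All 9 symbols were found in RefSeq.

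Purine receptors such as P2ry12 and P2ry13 sense the ADP that damaged or active cells release, and Entpd1 breaks ATP and ADP down outside the cell. Cx3cr1 binds fractalkine, a chemokine made mainly by neurons, and Csf1r carries the survival signal on which microglia depend. m6A is a common internal modification of messenger RNA, placed by a methyltransferase complex that prefers an A followed by C, and it is known to affect the stability and translation of transcripts.

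The libraries came from cortex of mice with the genotype APOBEC1-YTH, an m6A-binding domain fused to a cytidine deaminase. Mice were 10 weeks old when tamoxifen began, were dosed with 20 mg/kg on each of 5 days, 24 hours apart, and were sampled 7 days after the last dose. All 4 libraries share this genotype and treatment, and the driver of the transgene is not given in the sources used here. Cells were sorted with antibodies to ACSA2, for astrocytes, and CD11b, for microglia. There are 2 libraries labelled astrocytes and 2 labelled microglia, called astrocyte 1, astrocyte 2, microglia 1 and microglia 2 below after their labels. Nothing says whether the replicates came from separate animals, so a p-value measures the spread between these libraries, which may be technical. In GLORI, unmethylated A is deaminated and read as G, and the level of a site is the share of its reads that still carry A, given here in percent. Each table lists called sites with a level of at least 10%. A site that is not listed can be unmethylated, under a calling threshold or unread, and since the files give no read depth, levels carry no counting interval.

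The labels of both replicate 2 libraries were in doubt before any result below. Of 25 astrocyte markers, astrocyte 1 listed 22, microglia 2 listed 17, astrocyte 2 listed 1 and microglia 1 listed 0, with 67, 46, 2 and 0 sites. Of 35 microglia markers other than the 9 genes, astrocyte 2 listed 27 and microglia 1 listed 19, while astrocyte 1 listed 5 and microglia 2 listed 4. The products used for sorting ran the same way: Atp1b2, which encodes the ACSA2 epitope, had sites in astrocyte 1 and microglia 2, and Itgam, which encodes CD11b, had 1 site, in astrocyte 2. Libraries were not moved between groups, and each value below is given by library. The libraries listed different numbers of sites in named genes: 1066 for microglia 1, 2348 for astrocyte 2, 3782 for microglia 2 and 4790 for astrocyte 1.

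The sequences in the files are 3-mers around each called A, read in the direction of the transcript, with the called base in the middle. They are shown as the only sequence context given for the sites. All listed sites of the 4 libraries are of the same 2 kinds, so the 9 genes could show no other. The called base is in capitals.
Kind at 30 of the 42 positions: gAc
Kind at 12 of the 42 positions: aAc
P2ry13 had the second kind at both of its positions, and Csf1r, Selplg and Siglech had the first kind alone. The first kind made up 22 of 30 sites (73.3%) in microglia 1, against 56.4% of sites in all other named genes of that library, and 12 of 17 (70.6%) in astrocyte 2, against 65%. Over other genes with 3 or more sites, the share was 80.7% in microglia 1 and 63.4% in astrocyte 2, so the members' share lay between these sets in microglia 1. All positions are in mm39. Whether they lie in exons, introns or untranslated regions was not analysed here, because an annotation of that build was not used.

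Every one of the 9 genes had a site in microglia 1, 8 had one in astrocyte 2, and none had one in astrocyte 1 or microglia 2. Microglia 1 listed 30 of the sites and astrocyte 2 listed 17. The missing gene in astrocyte 2 was Selplg. In the replicate 1 libraries, 9 of 9 members had a site in microglia 1 and none in astrocyte 1, where 13.6% of the 3649 genes with a site in either library did so. In the replicate 2 libraries, 8 of the 8 members with a site had it in astrocyte 2 and not in microglia 2, where 30.1% of 3731 genes did so, while 54.0% of those genes had sites in microglia 2 alone. A site in both microglia 1 and astrocyte 2, with none in the other libraries, was found for 8 members and for 1.88% of all 5526 genes. The members had been chosen with results of these data known, so these shares are a description. Fewer microglia in a sort, less RNA of these genes per cell and less methylation of that RNA cannot be told apart in such bulk libraries. The doubt about the labels of both replicate 2 libraries applies to these counts too.

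**Figure D1:**
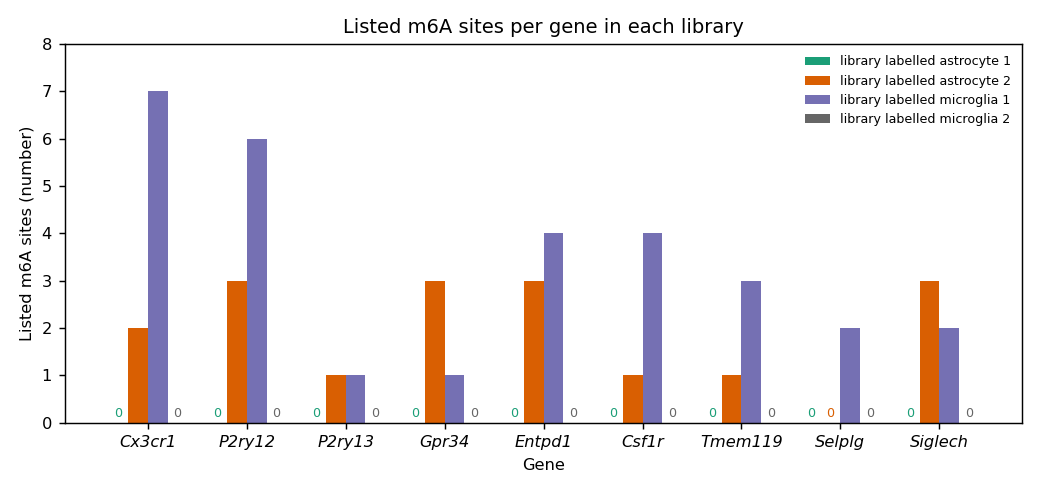
Number of listed m6A sites (vertical axis) for each of the 9 genes (horizontal axis), with 1 bar per library and a 0 where no site was listed. Cx3cr1 reaches 7 sites in microglia 1, and all bars for astrocyte 1 and microglia 2 are at 0.

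Compared as labelled, the 9 genes had 8.5 ± 12.02 sites per library in astrocytes (SD, n = 2) and 15 ± 21.2 in microglia (SD, n = 2), a difference of -6.5 sites (two-sided exact permutation p = 1). Each group held 1 library with many sites and 1 with none, so the groups overlapped fully. With 2 libraries against 2 this test cannot give a p below 0.333. The difference was -30 sites in the replicate 1 libraries and 17 in the replicate 2 libraries. Leaving out astrocyte 1 gave 2, leaving out astrocyte 2 gave -15, leaving out microglia 1 gave 8.5 and leaving out microglia 2 gave -21.5. Per 1000 sites in named genes, the members had 28.1 sites in microglia 1, 7.24 in astrocyte 2 and 0 in each of the other libraries. The comparison by label gave a difference of -10.5 on that scale (two-sided exact permutation p = 1). That value turned to 3.62 when microglia 1 was left out, and was -24.5 when microglia 2 was left out, -6.83 when astrocyte 1 was left out and -24.9 over sites below 100%. It was -28.1 in the replicate 1 libraries and 7.24 in the replicate 2 libraries. The number of members with a site differed by -0.5 between the labels (two-sided exact permutation p = 1). Leaving out astrocyte 1 turned this to 3.5 and leaving out microglia 1 to 4, while leaving out astrocyte 2 gave -4.5 and leaving out microglia 2 gave -5. It was -9 in the replicate 1 libraries and 8 in the replicate 2 libraries.

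Cx3cr1, the fractalkine receptor, had the most sites of any gene in microglia 1. Its 7 sites there spanned 1434 bases of the minus strand of chromosome 9, between 119879541 and 119880975. No other gene of that library had as many, and 139 genes of astrocyte 2 had more sites than the 2 of Cx3cr1 there. From the 5′ end, the levels in microglia 1 were 95.5% at 119880975, 29.2% at 119880706, 43.2% at 119880666, 100% at 119880241, 21.9% at 119879943, 53.8% at 119879644 and 55.6% at 119879541. The highest levels, at 119880975 and 119880241, stood on either side of sites under 50% at 119880706 and 119880666, which lay 40 bases apart. In astrocyte 2 the levels were 22.5% at 119879644, a base that both libraries listed, and 17.3% at 119879001, 540 bases from the nearest site of microglia 1.

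P2ry12, the ADP receptor that guides microglial processes toward injury, had 6 sites in microglia 1 and 3 in astrocyte 2. In microglia 1, a library where 1 gene had more sites, the sites spanned 747 bases of the minus strand of chromosome 3. Their levels from the 5′ end were 33.3% at 59125598, 50% at 59125529, 40% at 59125431, 32.7% at 59125377, 88.9% at 59125145 and 29.0% at 59124851. The 5 sites other than 59125145 lay within a narrow band, from 29.0% to 50%, and the 4 at the 5′ end were 54 to 98 bases apart. Astrocyte 2 listed 11.7% at 59125295, 16.7% at 59124851 and 40% at 59124430. The base at 59124851 was listed by both libraries.

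P2ry13 encodes a second ADP receptor and is the neighbour of P2ry12 in RefSeq. It had 1 site in each library, at different bases 697 apart: 59117345 at 66.7% in microglia 1 and 59116648 at 80% in astrocyte 2. Both receptors lie inside the span of Med12l in RefSeq (GRCm38.p6), a gene with 1 site in microglia 1, on the plus strand. The sites of P2ry12 and P2ry13 were all listed on the minus strand.

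Gpr34, a receptor for lysophosphatidylserine that belongs to the same receptor family as P2ry12, was the member with the largest surplus of sites in astrocyte 2. It had 3 sites there, on the plus strand of chromosome X, with levels of 90% at 13505656, 48.3% at 13505990 and 27.5% at 13506242. Microglia 1 listed 1 site, at 13505477, with a level of 30.8%. No base was shared, and the 4 positions lay within 765 bases. Gpr34 lies inside the span of Cask in RefSeq, and Cask had no listed site in any library. In astrocyte 2 the level was lower at each site further toward the 3′ end.

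Entpd1 encodes the ectonucleotidase CD39, which removes the ATP and ADP that the purine receptors sense. Its 7 sites on the plus strand of chromosome 19 were spread over 78778 bases, the widest span of the 9 genes. Microglia 1 listed 40% at 40649073, 60% at 40727292, 72.7% at 40727583 and 100% at 40727851. Astrocyte 2 listed 38.5% at 40713504, 40.7% at 40714624 and 94.7% at 40715881. Each library therefore had a group of 3 sites, with gaps of 291 and 268 bases in microglia 1 and of 1120 and 1257 bases in astrocyte 2. The groups were at least 11411 bases apart with no base in common. In both groups the levels were higher at each site toward the 3′ end.

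Csf1r, the receptor for the growth factors Csf1 and Il34, had 4 sites in microglia 1 and 1 in astrocyte 2, on the plus strand of chromosome 18. The base at 61243393 was listed by both libraries, at 35.6% in microglia 1 and 38.2% in astrocyte 2. The other sites of microglia 1 lay at least 18680 bases downstream, at 18.4% (61262073), 92.9% (61263864) and 14.035% (61264093). The last pair were 229 bases apart and held the highest and the lowest level of the gene.

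Tmem119, a transmembrane protein used as a marker of microglia against other macrophages, had 3 sites in microglia 1 on the minus strand of chromosome 5. They stood at 27.8% (113933503), 100% (113932946) and 100% (113932824). The site of astrocyte 2, at 113931884, stood at 50.9% and lay 940 bases from the nearest of these. Selplg, the neighbour of Tmem119 in RefSeq, encodes a ligand of selectins. Its sites in microglia 1 were at 113957024, with 15.4%, and at 113956676, with 35.3%, and no site was listed in astrocyte 2.

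Siglech, named as a member of the Siglec family of lectins, was the member whose sites the libraries shared most. Microglia 1 listed 2 sites on the plus strand of chromosome 7, with 50% at 55418351 and 44.4% at 55427310. Astrocyte 2 listed both of these bases, at 18.2% and 39.3%, and also 55418409, with 28.6%. The position 55427310 is in lower case in both files, which by convention marks repeat sequence, and was the one such position among the 42.

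**Figure D2:**
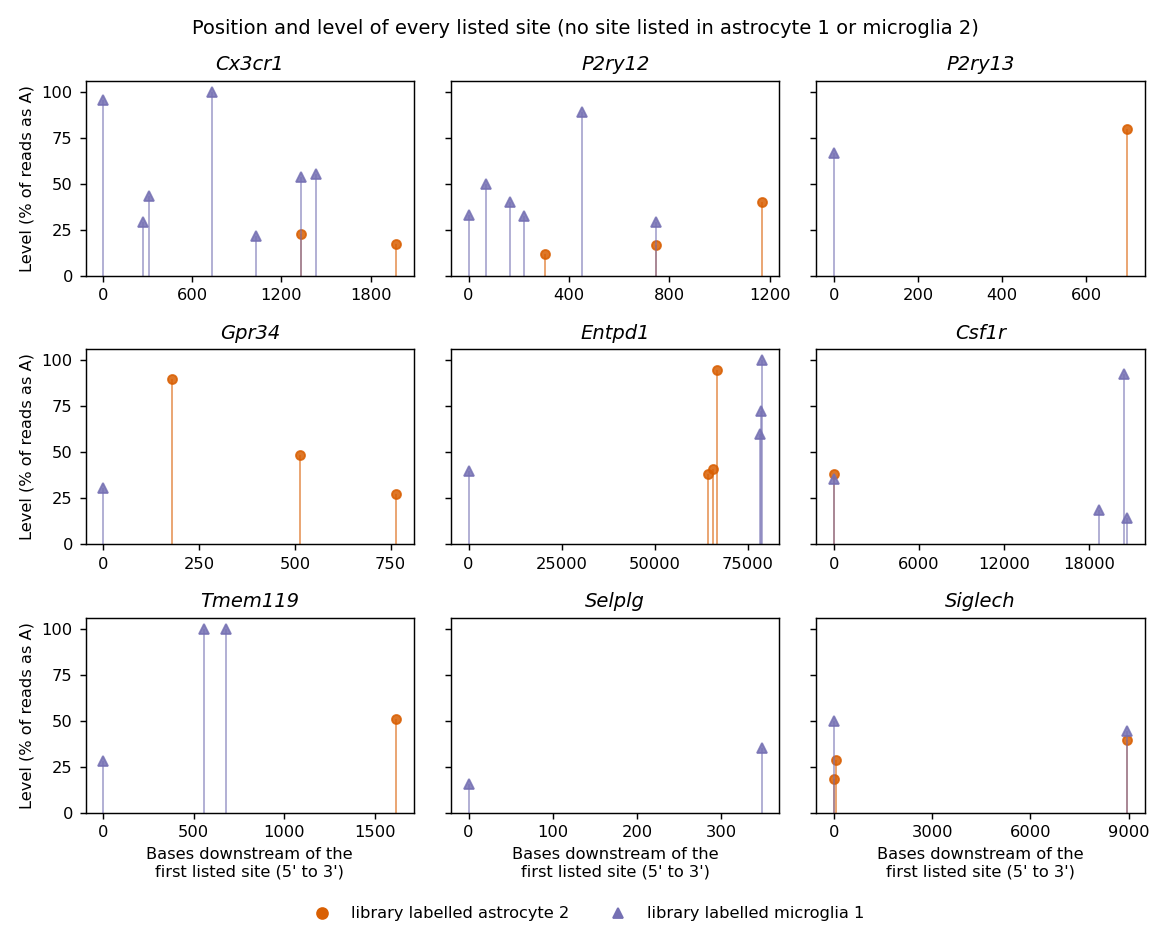
Level of every listed site in percent of reads as A (vertical axis) against its distance in bases downstream of the first listed site of that gene (horizontal axis, a separate scale for each gene), with triangles for microglia 1 and circles for astrocyte 2. The Entpd1 sites of the libraries stand in separate groups, and Cx3cr1, P2ry12, Csf1r and Siglech have bases listed by both.

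The libraries shared 5 of the 42 positions, in 4 genes: 1 each in Cx3cr1, P2ry12 and Csf1r and 2 in Siglech. That is 29.4% of the 17 positions of astrocyte 2 and 16.7% of the 30 of microglia 1. Over all sites in named genes the libraries shared 167 positions, or 7.11% of those of astrocyte 2 and 15.7% of those of microglia 1. As a share of astrocyte 2 the members stood above that background, and as a share of microglia 1 they stood close to it. A position can be shared only in a gene with sites in both libraries. All 8 members with a site in astrocyte 2 also had one in microglia 1. Of 1708 other genes with a site in astrocyte 2, 317 did. The share over those 317 genes alone was not computed. Neither 29.4% against 7.11% nor 16.7% against 15.7% therefore compares like genes. Of the 12 positions of astrocyte 2 that were not shared, 9 lay within 1000 bases of a site of microglia 1 in the same gene. The 3 that did not were those of Entpd1.

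At 4 of the 5 shared bases the level was higher in microglia 1. The difference, microglia 1 minus astrocyte 2, was 31.8 points at 55418351 in Siglech, 31.3 points at 119879644 in Cx3cr1, 12.4 points at 59124851 in P2ry12, 5.16 points at 55427310 in Siglech and -2.60 points at 61243393 in Csf1r. Among the 62 positions of other named genes listed by both libraries below 100%, the difference had a median of 1.63 points and an SD of 15.1 points, and 58.1% were higher in microglia 1. The differences at Siglech 55418351 and at Cx3cr1 were larger than this SD, and the other 3 were smaller. With 1 value per library at each base there is no replicate check and no test. No member position was listed in all 4 libraries, so no fit across libraries could include one.

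**Figure D3:**
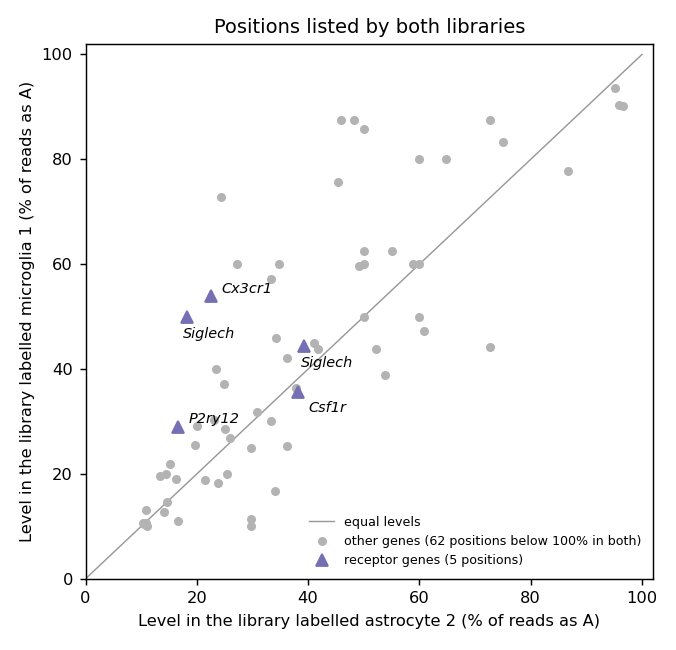
Level in microglia 1 (vertical axis) against level in astrocyte 2 (horizontal axis), both in percent of reads as A, at positions listed by both libraries below 100%. Triangles are the 5 positions in the receptor genes and grey circles the 62 in other genes; 4 triangles lie above the line of equal levels and that of Csf1r lies just under it.

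Levels in the 9 genes were low beside the median over other named genes of the same library, as were those of other marker genes. In microglia 1 the 30 member sites ranged from 14.035% to 100% with a median of 43.8%, against a median of 100% over 1036 sites of other named genes. In astrocyte 2 the 17 member sites ranged from 11.7% to 94.7% with a median of 38.5%, against 80% over 2331 sites. A level of 100% was listed at 4 of 30 member sites in microglia 1 (13.3%), against 61.7% of the other sites, and at 0 of 17 in astrocyte 2, against 38.1%. The 4 sites at 100% were 2 in Tmem119 and 1 each in Cx3cr1 and Entpd1. Low medians were not particular to the 9 genes: the other microglia markers had a median of 53.6% over 26 sites in microglia 1 and of 46.2% over 69 sites in astrocyte 2. Astrocyte markers had a median of 23.1% in astrocyte 1 and 20.6% in microglia 2.

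Among other genes of microglia 1 and astrocyte 2, those with 3 or more sites had a lower median level than all together. Of the 9 members, 7 had 2 or more sites in microglia 1 and 5 had 3 or more, against 9.04% and 2.13% of all 940 genes with a site there. In astrocyte 2, 5 members had 2 or more and 4 had 3 or more, against 22.7% and 8.1% of 1716 genes. Over other genes with 3 or more sites, the median level was 60% both in microglia 1 (57 sites) and in astrocyte 2 (508 sites), nearer to the members than the level over all genes. The share at 100% in these genes was 17.5% in microglia 1 and 22.8% in astrocyte 2. Sites of 1 gene share its transcripts, so they are not replicates and no test was made, and the part of read depth in these medians was not tested.

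**Figure D4:**
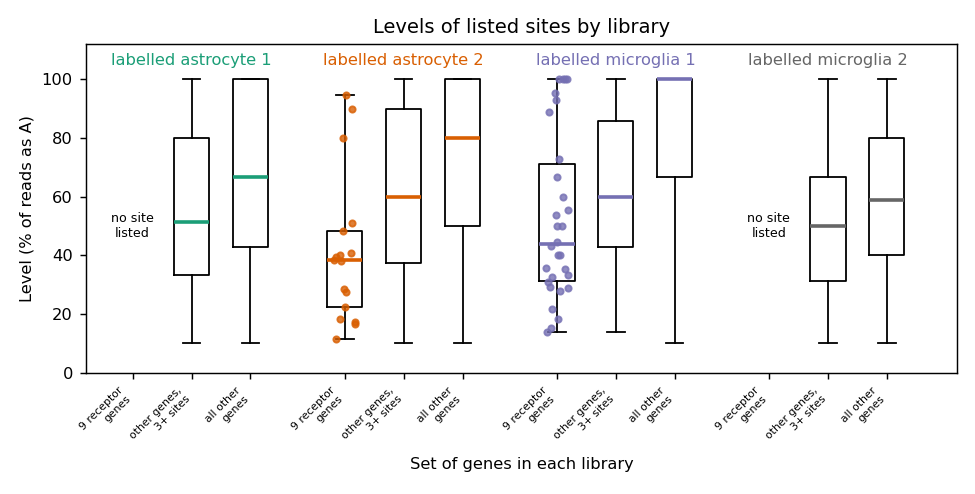
Level of listed sites in percent of reads as A (vertical axis) by library, for the 9 receptor genes, for other genes with 3 or more sites and for all other named genes (horizontal axis). Boxes give the quartiles with the median as a coloured line, whiskers reach the lowest and highest level, and points are single sites of the receptor genes; the median of the receptor genes is 38.5% in astrocyte 2 and 43.8% in microglia 1.

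The members did not all differ between the libraries in 1 direction. By the median over a gene's sites, microglia 1 stood higher than astrocyte 2 in 5 members and lower in 3. The same count over the 317 other genes with sites in both libraries was not made. Over all other named genes the median level was also higher in microglia 1, at 100% against 80%, so the count is not shown to be particular to the members. The values in microglia 1 and astrocyte 2 were 53.8% and 19.9% for Cx3cr1, 36.7% and 16.7% for P2ry12, and 66.4% and 40.7% for Entpd1. They were 100% and 50.9% for Tmem119 and 47.2% and 28.6% for Siglech. The order was the other way in P2ry13, with 66.7% and 80%, in Gpr34, with 30.8% and 48.3%, and in Csf1r, with 27.0% and 38.2%. Most of these medians rest on different bases in each library, and a member with 1 site in a library has no spread there. By 3-mer, the median in microglia 1 was 39.4% for the first kind and 51.9% for the second, and in astrocyte 2 it was 38.7% and 38.5%.

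Sites of the members lay close together. In microglia 1, 28 sites had another site of the same gene in the library, at a median distance of 268 bases to the nearest, against 602 bases over 183 sites of other genes. In astrocyte 2 this was 432.5 bases over 14 sites, against 694 bases over 1008. A neighbour within 1000 bases was found for 82.1% of these sites in microglia 1 and 71.4% in astrocyte 2, against 59% and 54.1% of those of other genes. Within 100 bases the shares were 21.4% and 14.3%, against 24.6% and 24%. A neighbour within 1000 bases was thus more common for the members' sites, and one within 100 bases was not. Sites of a gene with many sites tend to have nearer neighbours. In microglia 1, 5 of the 9 members had 3 or more sites, against 2.13% of genes. Distances were not compared at equal numbers of sites per gene, so closer spacing cannot be told from more sites.

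Other genes of the same pathways were counted by library. For scale, of the 5526 gene names with a site in any library, astrocyte 1 listed 3152, microglia 2 listed 2609, astrocyte 2 listed 1716 and microglia 1 listed 940. The pathway lists also hold genes without a site in any library, so their counts have no like background and are a description. Of 27 other purine receptors and nucleotide enzymes, microglia 1 listed 1, astrocyte 2 listed 2, microglia 2 listed 3 and astrocyte 1 listed 4. Adora1, an adenosine receptor, had 2 sites each in astrocyte 1 and microglia 2, the libraries without a site in P2ry12. P2rx4, an ATP-gated channel, had 1 site each in both replicate 1 libraries, and P2rx7, another such channel, had 1 each in both libraries labelled astrocyte. P2ry6, the receptor for UDP, had 3 sites in astrocyte 2 and none elsewhere. Each of the 4 libraries therefore listed at least 1 purine receptor gene, and astrocyte 1 shared such a gene with each of the other libraries. P2ry6, and below Cx3cl1, Csf1 and Il34, were named after their values were seen.

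Of 24 other chemokine ligands and receptors, microglia 1 listed 3, astrocyte 1 listed 2 and each replicate 2 library listed 1. Ccr1, another chemokine receptor, and Ackr2, a receptor that removes chemokines, each had 1 site in both replicate 1 libraries. Cx3cl1, the ligand of Cx3cr1, had no listed site in any library.

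Of 22 ligands, related receptors and signalling genes around Csf1r, astrocyte 2 listed 9, each replicate 1 library listed 4 and microglia 2 listed 2. Cebpa, a myeloid transcription factor, had 1 site in each library but astrocyte 1. Runx1, another, had 1 site in microglia 1 and 3 in astrocyte 2, and Pik3r1, a subunit of phosphoinositide 3-kinase, had 1 in astrocyte 2 and 2 in microglia 2. The ligands Csf1 and Il34 had 2 and 1 sites, all in astrocyte 1. Of 10 binding partners of selectins and sialic acid, 1 had a site in astrocyte 2 and 2 in microglia 1, namely Cd33 in both and Siglece in microglia 1.

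Among 15 markers of oligodendrocytes, astrocyte 1 listed 12 and microglia 2 listed 10, and the libraries with sites in the 9 receptor genes listed 0. Mbp and Mog, which define that type, had no site in astrocyte 2 or microglia 1. Among 15 markers of neurons, astrocyte 1 listed 4, microglia 1 listed 1 and neither replicate 2 library listed any. Among 14 markers of endothelial and mural cells, astrocyte 1 and microglia 2 listed 3 each and the others listed 0. Of 13 markers of border macrophages and blood myeloid cells, 1 had sites: Stab1, with 3 in astrocyte 2 and 1 in microglia 1. Mrc1, Lyve1 and Ccr2 had none in any library. The part of such cells in the sites of the 9 genes was not tested beyond these counts.

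**Figure D5:**
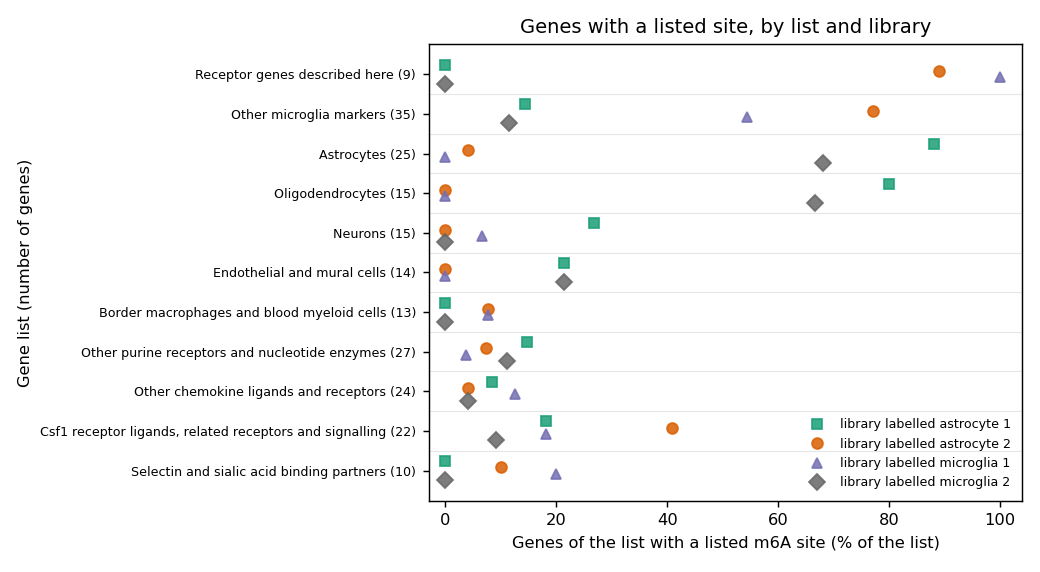
Share of the genes of each list with a listed m6A site, in percent (horizontal axis), for the receptor genes and 10 other lists (vertical axis, number of genes in brackets), with 1 symbol per library. The receptor genes stand at 0% in astrocyte 1 and microglia 2, 88.9% in astrocyte 2 and 100% in microglia 1.

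Genes with a distribution over the libraries most like that of the 9 members were found by cosine likeness of sites per 1000 sites in named genes, over 4 libraries and 447 other genes with 5 or more sites. The highest were Slco2b1 and Tgfb1 at 0.999, each with 3 sites in microglia 1 and 2 in astrocyte 2. Il10ra and Kctd12 followed at 0.997, with 5 and 4 sites in microglia 1 and 2 and 3 in astrocyte 2. Next came Soga1 at 0.9896, whose sites also reached microglia 2, with 2, and astrocyte 1, with 1. Among the members themselves the likeness to their sum ran from 0.774 for Gpr34 to 0.9996 for P2ry12.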

How the data were processed

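Each of the 4 libraries has 1 table of called m6A sites with no header and 7 columns. The authors deposited each level as a fraction, with no coverage, read count or p-value, and it was converted to percent here. The series' design text names GLORI-tools for site calling. The submitters' processing notes name STAR and the build mm39, and the sources used here give no calling thresholds. Depth per sample is unknown. A change of these thresholds would add or remove whole sites. Positions are the 1-based end column, and sites were matched by chromosome, position and strand.

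The 9 members and the 10 gene lists (193 symbols, all found in RefSeq GRCm38.p6, used for names and neighbours alone) were chosen with earlier results of these data known. Some genes stand in 2 lists. All members are named. From each pathway list up to 3 genes are named, by the number of libraries and then of sites, and others are said to be chosen later. Among cell type markers, Atp1b2 and Itgam were named for the sorting, and Mog, Mrc1, Lyve1 and Ccr2 were named outside this rule. The rule for the most alike genes takes 6 with 5 or more sites. A gene that these rules select is not reported here. Site counts were compared by an exact permutation test over libraries with Python 3.11.15. Levels without read counts received no test. Alternatives were other level limits, GAC sites, left-out libraries and a replicate block.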

Additional observations from a re-analysis of the deposited data

How the results depend on the processing

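The difference by label in sites of the 9 genes, -6.5 per library, ran from -21.5 to 8.5 when 1 library was left out, and was 17 in the replicate 2 libraries alone. Per 1000 sites in named genes it ran from -24.5 to 3.62, and was 7.24 in the replicate 2 libraries. The number of members with a site differed by -5 to 4, and by 8 in the replicate 2 libraries. Without astrocyte 1 or microglia 1 the sign turned for sites and for members, and without microglia 1 for sites per 1000. With sites under 100% the difference per 1000 was -24.9, and without Cx3cr1, chosen after seeing the data, the difference in sites was -4. With a replicate block it stayed at -6.5 (exact sign-flip p = 1, smallest possible 0.5). Deviations of same-numbered libraries had a Pearson's r of -0.28 across 5526 genes, which are not replicates; with both replicate 2 labels in doubt, this value cannot show whether the numbers mark a batch. With 2 pairs no call was possible under the numbers as labelled or under a crossed pairing, which was added after seeing the data. Of the 5 shared bases, 3 had a level of at least 20% in both libraries; a tolerance of 2 bases left the count at 5. Median member levels ran from 38.5% to 40% in astrocyte 2 and from 39.4% to 50% in microglia 1 over the settings tried. On log2 odds all 5 shared bases kept the sign of their difference. Assigning sites by position inside a gene was not run, since no annotation of mm39 was used here. Unknown depth limits every statement on a site that is not listed.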

Other observations

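Along the transcript, the sites of astrocyte 2 lay further toward the 3′ end than those of microglia 1 in several members. In Cx3cr1, P2ry12, P2ry13, Gpr34 and Tmem119, 5 of the 8 members with sites in both libraries, microglia 1 listed the site nearest the 5′ end and astrocyte 2 the site nearest the 3′ end. By the median position, the sites of astrocyte 2 were 513 bases further downstream in Gpr34, 553 in P2ry12, 697 in P2ry13, 918.5 in Cx3cr1 and 1062 in Tmem119. Entpd1, Csf1r and Siglech had medians further upstream in astrocyte 2. Among 317 other genes with sites in both libraries, 111 had equal medians in both libraries and so no order by the median. In the remaining 206 the median of astrocyte 2 was downstream in 54.9% and upstream in 45.1%, close to the 5 of 8 members, or 62.5%. The same order of first and last site was found in 35.9% of these 206 genes. This pattern was noticed in the data and rests on few sites per gene, so it is a description.

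Between the first and last listed site of Siglech, astrocyte 2 listed 2 further sites on the same strand that carry no gene name, at 55426511 with 66.7% and at 55426646 with 100%. Both are in lower case in the file and neither was listed in another library. They lie 799 and 664 bases before the named site at 55427310. No other member had a site of another name, or without a name, between its first and last listed site in any library.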
